A study of Mus musculus with 55 samples.

Results

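Islets from mice heterozygous for Eed (HET) were compared with islets from wild-type mice (WT) at 8 weeks of age. The comparison rests on 6 of the 16 bulk RNA-seq libraries of the series, which holds 55 samples in all. They were taken by genotype and age from the labels: HET replicates 1, 2 and 3, and WT replicates 1, 3 and 4. The other bulk libraries are islets of βEedKO mice (KO) at the same age, and of all 3 genotypes at 25 weeks.

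Eed is a core subunit of Polycomb repressive complex 2 (PRC2), the complex that methylates lysine 27 of histone H3. It binds the methylated histone tail and is needed for the activity of the catalytic subunits Ezh1 and Ezh2. In developing and adult tissues PRC2 keeps regulators of other lineages silent, and a heterozygous animal asks whether a single intact copy of the gene is enough for this.

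The study deleted Eed in β cells with a floxed Eed allele and RIP-cre (Tg(Ins2-cre)23Herr), a Cre driven by the insulin promoter. The mice were of strain C57B6/J and, per the study's methods, male unless stated otherwise. The labels give the genotype of the compared animals only as heterozygous or wild type, so whether each HET or WT animal carried Cre or a floxed allele is not given in the sources used here. Whole islets were handpicked after collagenase digestion and kept in RPMI medium with glucose and serum, and each library held islets of 1 or 2 animals. A Cre of this kind acts in β cells, so Eed RNA from α, δ, endothelial and other islet cells remains in every library. In such bulk samples fewer cells of a type and less RNA per cell cannot be told apart. The study's methods speak of biological triplicates, but whether the libraries of a group were prepared on separate occasions is not given. The p-values thus measure the spread between these samples. Total counts were 14601864 to 22925359 in HET and 18523130 to 18862300 in WT.

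Libraries stood apart within both groups. WT replicates 3 and 4 held 50 interferon-induced genes at a summed level of 8119 and 9063 CPM, counts scaled to a common library total, against 884 CPM in WT replicate 1. By this sum the HET libraries, at 711, 881 and 756 CPM, were all like WT replicate 1. By the mean log2(CPM + 1) of these genes, HET was lower, at 2.62, 2.915 and 2.717 against 3.201 in WT replicate 1. WT replicates 3 and 4 were at 5.807 and 5.974. HET replicate 2 held 7 adipocyte genes at 2796 CPM, against 30.1 and 40.6 CPM in HET replicates 1 and 3 and 15.3, 101 and 13.7 CPM in WT. Acinar genes, which mark exocrine tissue carried over with islets, took 20.2% of the counts of HET replicate 1 and 25.4% of those of WT replicate 1, and 4.19% to 9.04% in the other libraries compared. The defining islet genes were high in all 6 libraries, with Ins1, Ins2 and Gcg together at 14.3% to 19.2% of counts. No 2 libraries of a group were alike within sampling noise.

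The libraries were also compared as wholes, by Spearman's rho of log2 CPM over the 18828 genes tested, as a description with shared depth and composition. HET replicates 1 and 3 were closest to each other, at a rho of 0.982. They were almost as close to HET replicate 2 at 25 weeks, at 0.982 and 0.981, and their rho with WT at 8 weeks was 0.949 to 0.963. HET replicate 2 was closest to WT replicate 4 at 25 weeks, at 0.965. WT replicates 3 and 4 at 8 weeks had a rho of 0.981 with each other, and 0.934 and 0.937 with WT replicate 1. The rho of WT replicate 1 with the other WT libraries was thus within its range with HET, 0.932 to 0.963.

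**Figure D1:**
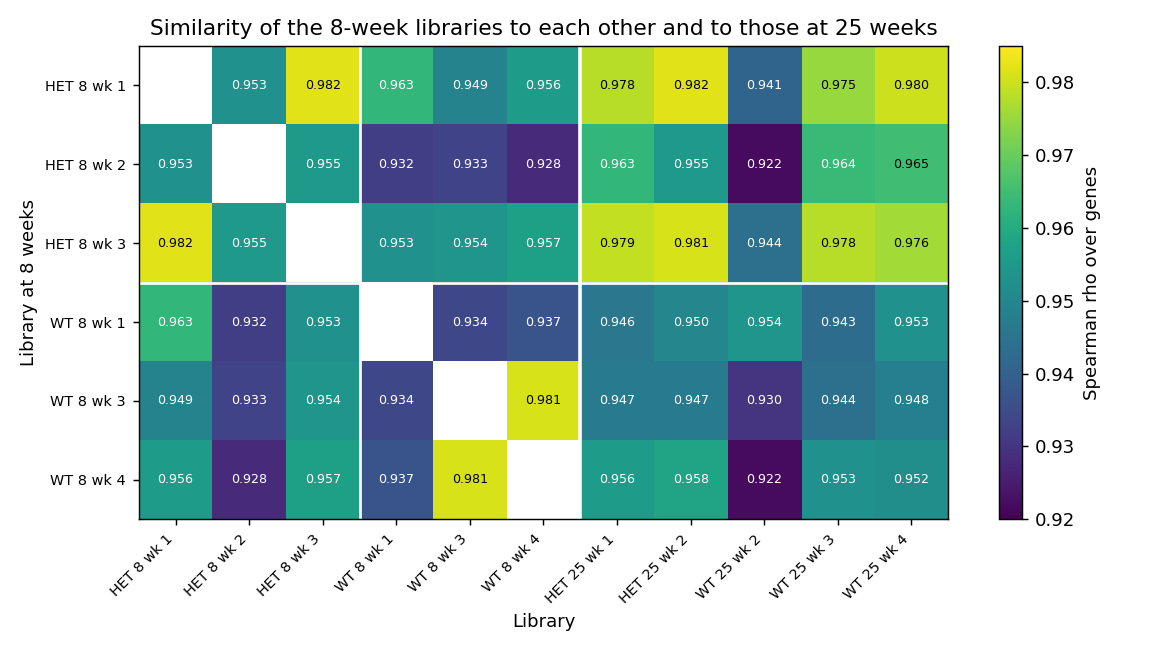
Spearman's rho over 18828 genes between each HET or WT library at 8 weeks (rows) and the HET and WT libraries at 8 and 25 weeks (columns); white cells on the diagonal are a library with itself. HET replicates 1 and 3 reach 0.975 to 0.982 with the HET libraries and WT replicates 3 and 4 at 25 weeks, and at most 0.963 with WT at 8 weeks.

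No gene passed an adjusted p of 0.05 between HET and WT at 8 weeks in edgeR's quasi-likelihood test (0 of 18828, 0%). An unadjusted p under 0.05 was reached by 2743 genes (14.6%), 1177 higher and 1566 lower in HET. All HET libraries lay above all WT libraries for 1931 genes (10.3%) and below them for 1712 (9.09%). DESeq2 on the same counts called 381 genes, 110 higher (0.584%) and 271 lower (1.44%). Leaving out WT replicate 1 brought 602 calls in edgeR, 85 higher (0.451%) and 517 lower (2.75%), whereas leaving out any other single library of the 6 brought 0. The WT libraries then left were the 2 with high interferon-induced genes. The median log2 fold change over all genes was 0.01.

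Eed itself was lower in HET in every library. It had 17.2, 17.1 and 20.5 CPM in HET and 23.9, 33.1 and 31.2 CPM in WT, with no overlap, and 14.9, 13.4 and 14.8 CPM in KO. The means were 18.3 ± 1.94 CPM in HET and 29.4 ± 4.89 CPM in WT (SD, n = 3), a log2 fold change of -0.69 ± 0.18 (SE; adjusted p = 0.223 in edgeR). The gene (ENSMUSG00000030619) lies on chromosome 7 from 89954654 to 89980983 in GRCm38, and its start site was in state A of the wild-type islet segmentation, an active promoter state. The call was reached by DESeq2, with a log2 fold change of -0.71. It was also reached in edgeR, at -0.88, without WT replicate 1, the WT library with the lowest Eed level. At 25 weeks Eed had 16.3 and 16.9 CPM in HET and 28.3, 22.0 and 19.3 CPM in WT.

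The other subunits of PRC2 did not share one direction. Of 11 PRC2 genes tested, 2 were above and 4 below WT in all libraries (10.3% and 9.09% of all genes). The median log2 fold change was -0.31 (0.01 over all genes), -0.50 without WT replicate 1 and -0.00078 without WT replicates 3 and 4. Suz12, the subunit that holds the catalytic core together, had 49.6, 48.9 and 49.0 CPM in HET and 48.0, 72.0 and 73.0 CPM in WT. WT replicates 3 and 4 were high and WT replicate 1 was at the HET level. Ezh1, the methyltransferase of resting cells, had 62.9, 70.8 and 55.8 CPM in HET and 62.3, 36.7 and 43.3 CPM in WT. Ezh2, that of dividing cells, had 4.39, 7.10 and 4.75 CPM in HET against 9.13, 6.28 and 4.40 CPM in WT; for both the groups overlapped. Aebp2, a cofactor of PRC2, had 34.7, 37.2 and 37.9 CPM in HET and 36.6, 62.6 and 69.8 CPM in WT, again with WT replicate 1 near HET. Phf1, which recruits PRC2, was the member furthest above WT, with 147, 128 and 139 CPM in HET and 106, 66.8 and 83.5 CPM in WT (log2 fold change 0.69 ± 0.21).

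In PRC1, the complex that ubiquitinates histone H2A, 5 of 18 genes were above WT in all libraries and 3 below (10.3% and 9.09% of all genes), with a median of 0.03. Among the higher ones, the chromobox gene Cbx8 had 19.8, 15.6 and 15.5 CPM in HET against 7.93, 4.71 and 5.19 CPM in WT. In the other direction, the RING-partner gene Pcgf3 had 30.4, 28.4 and 29.0 CPM in HET and 36.4, 47.3 and 51.2 CPM in WT. Phc2 had 65.1, 60.7 and 63.0 CPM in HET against 66.5, 126 and 140.1 CPM in WT, a difference carried by WT replicates 3 and 4. Among 11 Trithorax methylases and H3K27 demethylases, 5 were above WT in all libraries and 0 below (10.3% and 9.09% of all genes). The H3K27 demethylase Kdm6a had 53.7, 46.9 and 48.3 CPM in HET and 30.9, 32.7 and 42.7 CPM in WT. Its paralog Kdm6b had 179, 137 and 145 CPM in HET against 63.0, 72.2 and 124 CPM in WT. None of these genes was called in edgeR over all 16 libraries. Without WT replicate 1, Pcgf3 and Phc2 were called lower in edgeR (adjusted p = 0.0284 and 0.0400), and DESeq2 called Pcgf3 lower and Cbx8 higher.

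Of 6 transcription factors of other tissues that the study followed in KO, 1 lay above WT in all libraries and 0 below (10.3% and 9.09% of all genes). An unadjusted p under 0.05 with higher values in HET was reached by 3 (6.25% of all genes). The median log2 fold change of the 6 was 1.29, and -0.83 without HET replicate 2. Barx1 and Pitx1 had no read in any HET library. Hoxb7, the factor above WT without overlap, was below 1 CPM in each library. It had 0.139, 0.177 and 0.138 CPM in HET, 0.0634, 0 and 0 in WT and 0.569, 0.401 and 0.173 in KO. Gata2 had 2.93, 2.75 and 4.27 CPM in HET and 2.54, 3.02 and 4.29 CPM in WT, in full overlap. Twist1 had 0.209, 1.91 and 0.0689 CPM in HET, 0, 0.174 and 0 in WT and 4.17, 3.76 and 6.66 in KO. Zic1 had 0, 1.42 and 0 CPM in HET, 0, 0.0581 and 0 in WT and 1.57, 1.86 and 1.56 in KO. For both, the highest HET value was that of replicate 2, the library with adipocyte genes. In the other HET libraries and in WT both were below 1 CPM. Cdkn2a, a cell cycle inhibitor chosen after its values were seen, had 0.418, 0.222 and 0.482 CPM in HET and 0.254, 0.233 and 0.424 CPM in WT, while the KO libraries had 11.4, 8.63 and 13.2 CPM. The imprinted growth factor gene Igf2 had 4.04, 5.41 and 3.79 CPM in HET, 9.39, 6.69 and 6.04 in WT and 188, 143 and 151 in KO. HET lay below WT for Igf2 and far below KO, and both comparisons share the HET libraries. Dlk1, another imprinted gene, had 1.04, 1.11 and 0.826 CPM in HET, 3.55, 4.19 and 8.16 in WT and 8.63, 42.8 and 46.9 in KO.

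Of 59 developmental homeobox and other regulator genes tested, of 62 listed, 3 were above and 3 below WT in all libraries (10.3% and 9.09% of all genes). Their median log2 fold change was -0.04. Lhx1, a regulator of kidney and head development, had 22.7, 10.4 and 14.4 CPM in HET and 7.23, 3.66 and 6.25 CPM in WT. Gata6, which acts in pancreas development, had 14.7, 7.99 and 15.1 CPM in HET against 20.1, 22.0 and 21.3 CPM in WT. Hoxc8 was below 1 CPM in every library, with 0.139, 0.621 and 0.482 in HET and 0.0634, 0 and 0 in WT.

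Genes were also grouped by the chromatin state at their start site in wild-type islets. In the bivalent states L and M, which carry both H3K4me3 and H3K27me3, the medians were -0.01 over 2528 genes and -0.13 over 907. HET lay above WT without overlap for 7% of genes in state L and 3.75% in state M, against 10.3% over all genes. It lay below for 9.45% in state L and 7.61% in state M, against 9.09% over all genes. In the active state A the median was 0.01 over 6543 genes, with 12.9% above and 8.45% below. State P had the lowest median, -0.48 over 310 genes, with 4.19% above and 13.5% below, and state G the highest, 0.30 over 265 genes, with 18.1% above and 8.3% below.

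Interferon-induced genes were lower in HET than in WT replicates 3 and 4. They are switched on by type I interferon through a promoter element called ISRE, and interferon-gamma adds a family of immunity GTPases. ISRE cores are shown for 4 members that were high in WT replicates 3 and 4. They were chosen among members with a match by the smallest p, 2 interferon-induced genes and 2 interferon-gamma GTPases. The stretches lie upstream of the RefSeq start site in GRCm38.p6, read 5′ to 3′ on the gene's strand, with every match in capitals. A match is a pair of GAAA with 2 bases of any kind between them, read on either strand, so that on the opposite strand it shows as TTTC. Oas1a has a pair of matches that overlap.
Oas1a (chr5:120907526-120907575, - strand): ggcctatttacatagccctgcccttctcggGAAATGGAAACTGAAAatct
Ifit3 (chr19:34583343-34583446, + strand): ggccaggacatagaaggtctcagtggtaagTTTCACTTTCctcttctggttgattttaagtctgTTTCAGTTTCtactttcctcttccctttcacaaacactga
Igtp (chr11:58199492-58199555, + strand): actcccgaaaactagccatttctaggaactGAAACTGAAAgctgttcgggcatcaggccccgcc
Irgm2 (chr11:58214883-58214952, + strand): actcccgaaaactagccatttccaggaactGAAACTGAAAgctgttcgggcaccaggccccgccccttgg
Within 250 bases upstream, this core was found in 15 of 36 interferon-induced genes with a RefSeq promoter and 9 of 9 interferon-gamma GTPases. It was found in 2 of 15 genes of MHC class I antigen presentation and in 349 of 12938 genes tested (2.7%). Igtp and Irgm2 are neighbouring paralogs. A match is a description of the letters, not a bound site.

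Of 50 interferon-induced genes tested, 35 lay below WT in all libraries (9.09% of all genes) and 0 above, and 45 had an unadjusted p under 0.05 with lower values in HET (8.32% of all genes). The median log2 fold change was -3.21. Mx1, an antiviral GTPase, had 1.04, 0.710 and 0.826 CPM in HET and 1.40, 55.9 and 74.5 CPM in WT. Oasl2, of the oligoadenylate synthetase family, had 3.34, 6.39 and 6.89 CPM in HET against 18.1, 135 and 198 CPM in WT. Oas1a, which makes the activator of RNase L, had 0.975, 1.60 and 0.826 CPM in HET against 3.62, 14.7 and 13.9 CPM in WT. Ifi44 had 1.25, 1.82 and 0.275 CPM in HET and 3.93, 13.2 and 14.3 CPM in WT. In each of them WT replicates 3 and 4 were high, while WT replicate 1 lay above HET but far below these. The same split was found in KO, where Mx1 had 8.87, 177 and 200.3 CPM and Oasl2 9.73, 254 and 265 CPM. Without WT replicates 3 and 4 the median of the list was -0.50. Without WT replicate 1 the median was -3.68 and 33 of 50 were called lower (2.75% of all genes). DESeq2 over all 16 libraries called 35 of 50 lower (1.44% of all genes).

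All 13 interferon-gamma GTPases tested had an unadjusted p under 0.05 with lower values in HET (8.32% of all genes). Of these, 4 were below WT without overlap (9.09% of all genes). Igtp had 5.57, 10.8 and 7.71 CPM in HET and 22.8, 105 and 105 CPM in WT. Irgm2 had 6.27, 10.7 and 6.40 CPM in HET against 13.8, 105 and 129.5 CPM in WT. Irgm1 had 15.4, 20.6 and 23.3 CPM in HET against 25.9, 369 and 388 CPM in WT. Gbp6 overlapped, with 0.975, 1.95 and 0.620 CPM in HET and 1.27, 39.6 and 54.7 CPM in WT. The median of the group was -3.42, and -0.07 without WT replicates 3 and 4.

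Genes of MHC class I antigen presentation were below WT in all libraries for 7 of 18 (9.09% of all genes), with a median of -1.09, and -0.086 without WT replicates 3 and 4. Tap1, the peptide transporter, had 15.3, 16.5 and 14.5 CPM in HET and 21.6, 106 and 132 CPM in WT. The immunoproteasome subunit gene Psmb8 had 6.55, 9.10 and 7.99 CPM in HET against 14.0, 40.2 and 43.8 CPM in WT. Psmb9, of the same complex, had 7.17, 9.32 and 8.88 CPM in HET against 11.3, 24.7 and 29.7 CPM in WT. H2-T23 had 31.5, 34.6 and 34.1 CPM in HET and 53.6, 64.7 and 69.2 CPM in WT. For these 4 genes WT replicates 3 and 4 were the highest libraries. Among 17 interferon genes, receptors and sensors, 3 were below WT in all libraries (9.09% of all genes). The RNA sensor Tlr3 had 6.55, 7.94 and 5.37 CPM in HET against 10.4, 54.0 and 56.2 CPM in WT. The receptor chain Ifngr2 had 11.6, 13.7 and 16.5 CPM in HET against 18.2, 61.9 and 58.6 CPM in WT. The summed level of macrophage genes was 291, 423 and 376 CPM in HET and 307, 286 and 242 CPM in WT. Lymphocyte genes summed to 33.9, 10.9 and 27.4 CPM in HET and 52.8, 20.8 and 32.2 CPM in WT. The part of immune cell content in these values was not tested.

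**Figure D2:**
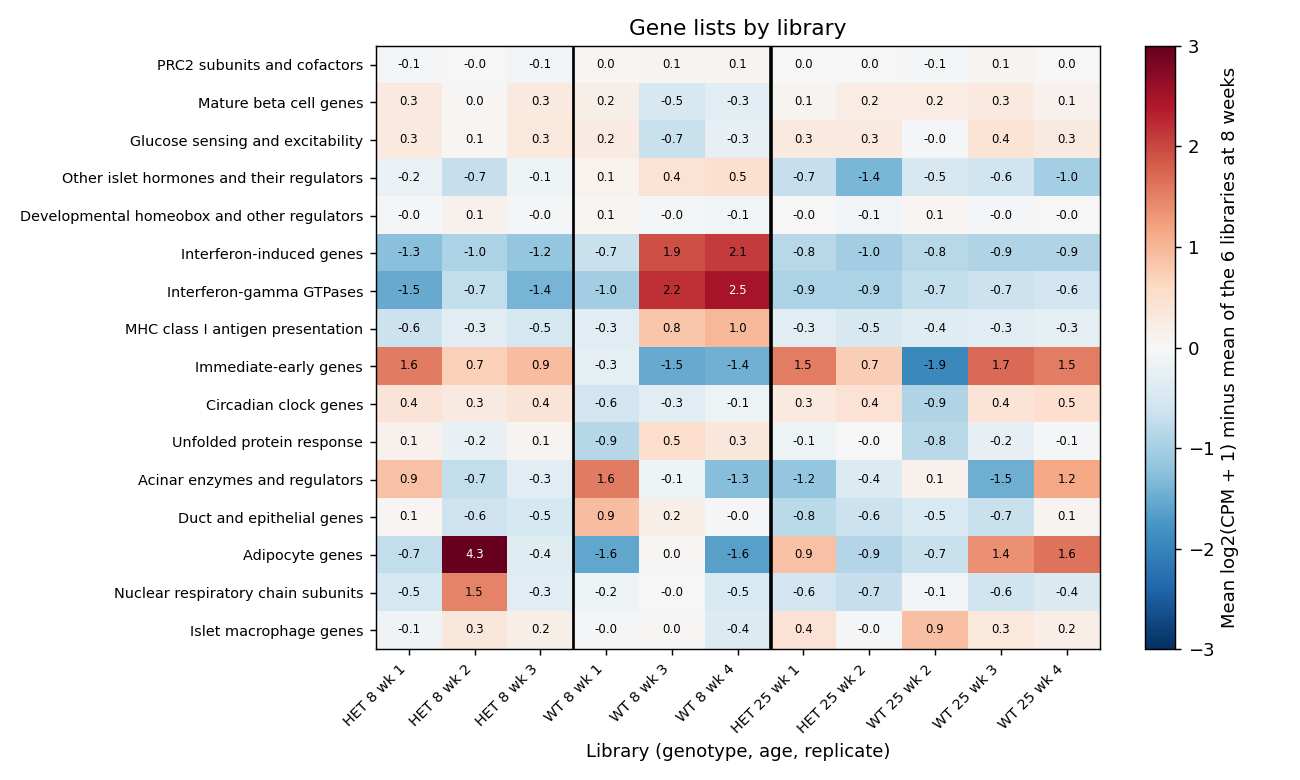
Mean log2(CPM + 1) of each gene list in each library, minus its mean over the 6 libraries at 8 weeks; the colour scale stops at 3. WT replicates 3 and 4 at 8 weeks stand out for interferon lists, and HET replicate 2 at 8 weeks for adipocyte and respiratory chain genes. Immediate-early genes are high in all HET libraries at 8 weeks, and also in HET and in WT replicates 3 and 4 at 25 weeks.

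Most immediate-early genes lay above WT in HET. This class, which holds Fos, the Egr family and the Nr4a nuclear receptors, is induced within minutes by calcium, cAMP and growth factors, and in β cells by glucose. Of 20 tested, 14 lay above WT in all libraries (10.3% of all genes) and 0 below, and 10 had an unadjusted p under 0.05 (6.25% of all genes). The median log2 fold change was 1.70. The summed level was 14901, 8122 and 9589 CPM in HET and 7112, 1176 and 1283 CPM in WT. By this sum WT replicate 1 was near HET, and WT replicates 3 and 4 were far lower. By the mean log2(CPM + 1) of the list, WT replicate 1 lay between them at 6.342. HET was then at 8.165, 7.316 and 7.544, and WT replicates 3 and 4 at 5.107 and 5.173. Without WT replicates 3 and 4 the median log2 fold change was 1.15.

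Nr4a1 had 897, 616 and 508 CPM in HET and 102, 57.4 and 74.5 CPM in WT (log2 fold change 3.11 ± 0.87; adjusted p = 0.234 in edgeR). Nr4a2 had 103, 65.1 and 61.8 CPM in HET against 8.94, 12.9 and 10.5 CPM in WT, without overlap. Arc, known from synapses, had 346, 81.6 and 130.2 CPM in HET and 22.7, 8.61 and 14.8 CPM in WT. For these 3, WT replicate 1 lay far below HET together with the other WT libraries. Egr4 had 12.1, 5.50 and 8.33 CPM in HET against 0.507, 0.291 and 0.106 CPM in WT. Egr2 had 15.9, 6.79 and 8.68 CPM in HET against 2.41, 1.80 and 1.01 CPM in WT. Over the 9 libraries at 8 weeks edgeR called Nr4a1 and Egr4 higher (adjusted p = 0.03945 and 0.04671). DESeq2 called 5 of the 20 immediate-early genes higher (0.584% of all genes). Fos, chosen after its values were seen, overlapped, with 2222, 1259.9 and 1401 CPM in HET and 1949, 55.5 and 60.4 CPM in WT; its level in WT replicate 1 was at that of HET. At 25 weeks Nr4a1 had 949.6 and 354 CPM in HET and 22.7, 1051 and 828 CPM in WT, where replicate 2 was low.

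Among 21 circadian clock genes, a list added after values were seen, 9 lay above WT in all libraries and 0 below (10.3% and 9.09% of all genes). Their median log2 fold change was 0.18, and 0.93 without WT replicates 3 and 4. Per1, a repressor of the clock, had 464, 331 and 384 CPM in HET and 113, 38.4 and 56.5 CPM in WT. Nr1d1, which encodes REV-ERBα, had 371, 309.8 and 427 CPM in HET against 146, 83.7 and 93.3 CPM in WT. Dbp, a clock output gene, had 103, 75.1 and 133 CPM in HET against 43.4, 29.5 and 33.4 CPM in WT. Ciart had 29.9, 25.3 and 43.3 CPM in HET against 9.96, 8.49 and 7.26 CPM in WT. WT replicate 1 was the highest WT library for these 4, and no WT library reached HET. Over the 9 libraries at 8 weeks edgeR called Ciart higher (adjusted p = 0.04671). DESeq2 called 6 of the 21 clock genes higher (0.584% of all genes). Among 15 targets of cAMP and CREB, also added later, 6 were above WT in all libraries and 1 below (10.3% and 9.09% of all genes). Irs2, an adaptor of the insulin receptor, had 469.9, 338 and 284 CPM in HET and 90.3, 35.8 and 45.4 CPM in WT. The hour of islet collection and the time in culture are not given in the sources used here, so their part in these values was not tested.

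The gene with the smallest p overall was Usp2, a clock-regulated ubiquitin protease. It had 65.4, 50.0 and 57.5 CPM in HET and 8.37, 6.16 and 5.24 CPM in WT (log2 fold change 3.13 ± 0.48; adjusted p = 0.197 in edgeR), with 13.1, 7.32 and 5.88 CPM in KO. At 25 weeks Usp2 had 65.6 and 47.4 CPM in HET and 12.2, 59.4 and 58.8 CPM in WT. The HET level at 8 weeks was thus also that of WT replicates 3 and 4 at 25 weeks. The other higher genes by this rule were Gpr6, Zfp184, Tppp, Kcnh5, Gtf2b, Gadd45g, Rab39, Phactr3 and Mitf, none called in edgeR over all 16 libraries after the filter on low counts. Without that filter edgeR called Usp2, Gpr6 and Tppp. Over the 9 libraries at 8 weeks edgeR called these 3 and also Gtf2b and Zfp184. Without WT replicate 1 it called Usp2, Gpr6, Zfp184, Tppp, Kcnh5, Gtf2b, Gadd45g, Rab39 and Phactr3. Gpr6, a receptor coupled to cAMP, had 11.3, 6.70 and 12.9 CPM in HET and 0.190, 0.349 and 0.159 CPM in WT. Gtf2b, the general transcription factor TFIIB, had 113, 114 and 120.3 CPM in HET against 42.9, 48.2 and 41.4 CPM in WT. Gadd45g, a stress-response gene, had 147, 150.1 and 155 CPM in HET against 61.1, 60.4 and 54.5 CPM in WT. Mitf, a basic helix-loop-helix factor, had 10.9, 12.0 and 10.3 CPM in HET and 5.01, 6.05 and 4.77 CPM in WT.

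Rab39, a vesicle GTPase gene, lay above WT at both ages. It had 12.9, 14.3 and 15.1 CPM in HET and 2.92, 2.04 and 1.43 CPM in WT at 8 weeks. At 25 weeks it had 14.8 and 13.6 CPM in HET against 3.92, 2.33 and 1.47 CPM in WT. The groups did not overlap at either age, with log2 fold changes of 2.73 and 2.51, and KO had 9.39, 2.56 and 2.16 CPM at 8 weeks. Neither fold change passed the test (adjusted p = 0.212 and 1 in edgeR over all 16 libraries). Without WT replicate 1, Rab39 was called at 8 weeks, with a log2 fold change of 2.95 (adjusted p = 0.0368 in edgeR).

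Among lower genes the smallest p values were those of C4bp, Lcn2, Gm5771, Rbms3, Cd44, Gm12250, Tspan8, Itgb6, Hsdl1 and Ehf. None of them was called in edgeR over all 16 libraries after the filter on low counts. Without WT replicate 1 edgeR called all of them lower. It called Lcn2 and Gm5771 without the filter on low counts, and Tspan8 over the 9 libraries at 8 weeks. Lcn2, an acute-phase lipocalin, had 0.139, 0.0887 and 0 CPM in HET and 5.84, 4.24 and 2.44 CPM in WT. Gm5771, a trypsinogen gene, had 10.2, 3.06 and 10.5 CPM in HET against 212, 124 and 193 CPM in WT. It belongs to a family of near-identical copies, so its count is uncertain. Cd44, a hyaluronan receptor, had 21.6, 19.6 and 13.4 CPM in HET and 30.1, 75.8 and 84.5 CPM in WT. Itgb6, an epithelial integrin, had 0.766, 0.621 and 0.620 CPM in HET against 3.11, 12.3 and 11.0 CPM in WT; in both, WT replicates 3 and 4 were highest. Tspan8, Hsdl1 and Ehf differed with all WT libraries close together. Tspan8, a tetraspanin of epithelia, had 21.1, 25.0 and 27.9 CPM in HET and 63.2, 58.4 and 52.0 CPM in WT. Ehf, an epithelial ETS factor, had 17.1, 11.1 and 13.2 CPM in HET against 32.6, 35.0 and 38.9 CPM in WT.

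**Figure D3:**
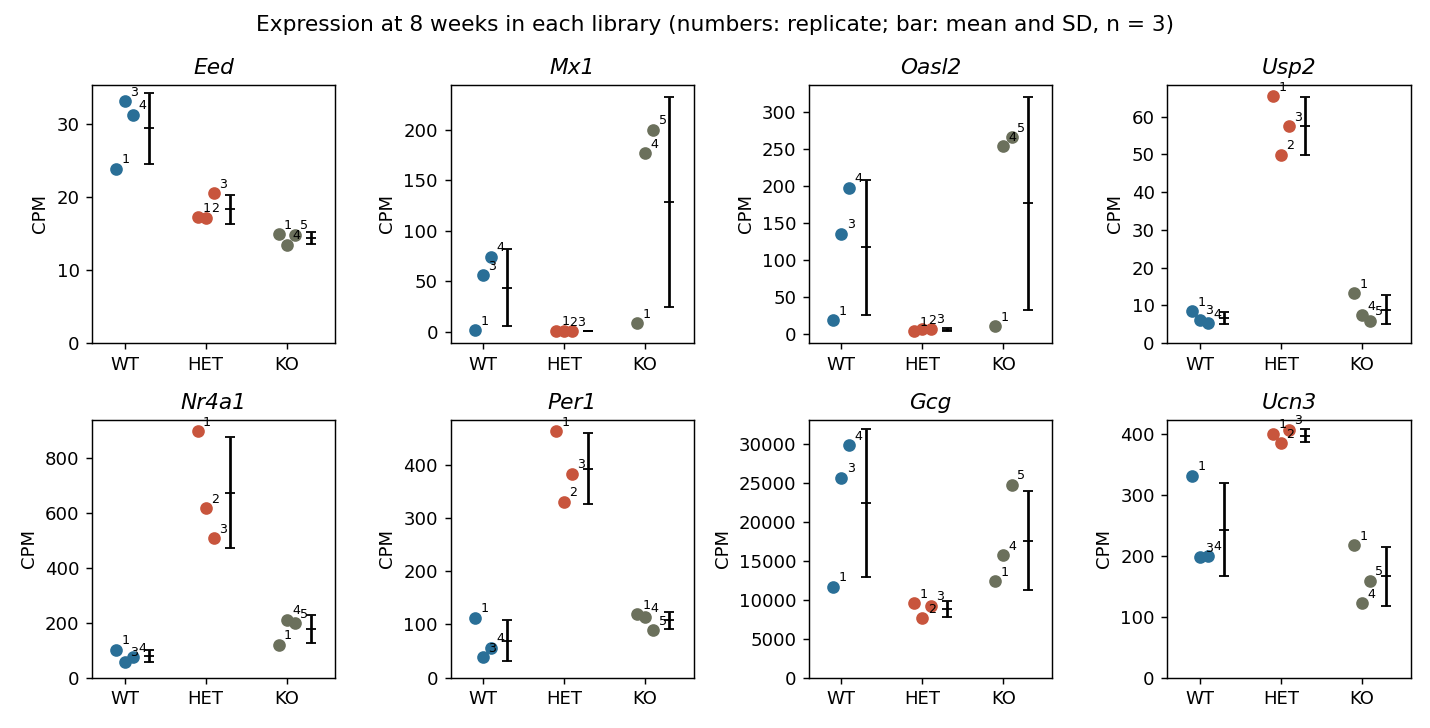
CPM of 8 genes in each WT, HET and KO library at 8 weeks; points are libraries with their replicate number, and bars are the mean and SD (n = 3). Eed in HET lies below all WT libraries, Mx1 and Oasl2 split WT and KO by library, and Usp2, Nr4a1 and Per1 are high in all HET libraries.

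Genes of mature β cells overlapped between HET and WT, with 1 exception. Of 8, 1 lay above WT in all libraries and 0 below (10.3% and 9.09% of all genes), with a median of 0.36. Ucn3, a peptide of mature β cells, had 401, 386 and 408 CPM in HET and 332, 198 and 200.4 CPM in WT (log2 fold change 0.71 ± 0.25). Mafa, an activator of insulin, had 167, 111 and 147 CPM in HET against 146, 26.6 and 42.4 CPM in WT, where WT replicate 1 was at the HET level and replicates 3 and 4 were low. Pdx1 had 104, 90.5 and 122 CPM in HET and 117, 72.4 and 81.5 CPM in WT. Nkx6-1 had 383, 293 and 339 CPM in HET against 354, 193 and 235 CPM in WT. Nkx2-2 had 121, 86.5 and 109.8 CPM in HET against 99.6, 57.4 and 62.2 CPM in WT. WT replicates 3 and 4 were the lowest libraries for these 3 developmental factors of β cells. Pax6 had 358, 298 and 378 CPM in HET and 282, 314 and 332 CPM in WT. Isl1 had 109, 120 and 127 CPM in HET against 137, 70.2 and 73.4 CPM in WT. Neurod1 went the other way, with 167, 137 and 158 CPM in HET and 145, 288 and 268 CPM in WT. Without WT replicates 3 and 4 the median of the list was 0.02.

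The insulin genes overlapped fully. Ins1 had 37597, 35487 and 39664 CPM in HET and 41723, 39226 and 28752 CPM in WT. Ins2 had 114466, 117927 and 144521 CPM in HET against 125181, 139259 and 88371 CPM in WT. Their log2 fold changes were 0.04 ± 0.47 and 0.10 ± 0.61. Of the genes of glucose sensing, 3 of 13 lay above WT in all libraries (10.3% of all genes). Their median was 0.29, and 0.013 without WT replicates 3 and 4. Gipr, an incretin receptor, had 223, 209.7 and 229.9 CPM in HET against 190, 43.4 and 73.3 CPM in WT. Slc2a2, the glucose transporter GLUT2, had 841, 697 and 688 CPM in HET against 736, 316 and 293 CPM in WT, in overlap. The zinc transporter of insulin granules, Slc30a8, had 1031, 899 and 1030.4 CPM in HET against 803, 653 and 558 CPM in WT.

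The other islet hormones and their regulators were lower in HET for 6 of 11 genes without overlap (9.09% of all genes), with 0 above and a median of -0.71. Gcg had 9537, 7657 and 9242 CPM in HET and 11672, 25666 and 29786 CPM in WT, with replicates 3 and 4 high and replicate 1 close to HET. Irx2, a factor of α cells, had 5.99, 5.50 and 7.09 CPM in HET and 9.96, 18.3 and 17.6 CPM in WT. Its paralog Irx1 had 3.76, 2.31 and 4.82 CPM in HET and 5.77, 6.63 and 7.52 CPM in WT. Sst had 2268, 1602 and 1867 CPM in HET and 2162, 2072 and 2043 CPM in WT. Ppy had 1959, 1723 and 2858 CPM in HET against 2599, 3275 and 3866 CPM in WT. For both Sst and Ppy the groups overlapped. Without WT replicates 3 and 4 the median was -0.32.

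Genes of the unfolded protein response went both ways. Of 18 tested, 2 lay above WT in all libraries, Herpud1 and Ddit3, and 1 below (10.3% and 9.09% of all genes). Herpud1, of ER-associated degradation, had 1017, 709.7 and 932 CPM in HET and 369, 516 and 406 CPM in WT. Ddit3, which encodes CHOP, had 170, 152 and 216 CPM in HET against 43.1, 96.8 and 68.5 CPM in WT. The ER co-chaperones Dnajb9 and Dnajc3 were highest in WT replicates 3 and 4, with Dnajb9 at 138, 715 and 568 CPM in WT and 233, 207 and 187 CPM in HET. Dnajc3 had 275, 236 and 253 CPM in HET against 282, 473 and 438 CPM in WT. The median of the 18 genes was -0.37, and 0.69 without WT replicates 3 and 4. Of cell cycle genes, 5 of 24 lay below WT in all libraries (9.09% of all genes) and 1 above (10.3%). Ccnd2, the main D cyclin of islets, had 523, 428 and 527 CPM in HET and 649, 794 and 979 CPM in WT. The inhibitor Cdkn1b had 60.9, 59.9 and 63.8 CPM in HET against 76.8, 97.9 and 83.3 CPM in WT.

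Duct and epithelial genes lay below WT in all libraries for 4 of 13 (9.09% of all genes), with a median of -0.63, and -1.32 without WT replicates 3 and 4. Krt19, a keratin of duct cells, had 5.78, 2.48 and 2.89 CPM in HET and 69.8, 15.6 and 16.1 CPM in WT. Sox9 had 2.58, 1.60 and 1.31 CPM in HET against 9.58, 5.17 and 3.50 CPM in WT. Spp1 had 35.5, 59.3 and 43.7 CPM in HET against 179, 70.6 and 63.8 CPM in WT. WT replicate 1, with the largest acinar share, was the highest library for all 3. Sprr1a had 0.139, 0.0444 and 0 CPM in HET against 0.888, 3.72 and 1.64 CPM in WT. The part of duct cell content in these values was not tested.

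HET replicate 2 held genes of brown fat at the highest level, and WT replicate 3 held several at a lower one. Ucp1, the uncoupling protein, chosen after its values were seen, had 2.23, 862 and 0.207 CPM in HET and 0.190, 45.7 and 0.424 CPM in WT. Fabp4, a fatty acid binding protein, had 20.6, 1779.9 and 26.0 CPM in HET against 12.2, 75.1 and 11.8 CPM in WT. The lipid droplet gene Cidec had 3.06, 307 and 4.96 CPM in HET against 2.73, 7.38 and 0.530 CPM in WT. Cfd had 0.488, 124 and 0.895 CPM in HET against 0.190, 0.174 and 1.11 CPM in WT. Respiratory chain genes were also highest in HET replicate 2. Ndufv1 had 58.1, 228 and 60.0 CPM in HET and 57.0, 65.9 and 50.9 CPM in WT. Uqcrc1 had 87.4, 416 and 82.8 CPM in HET against 105, 93.4 and 80.4 CPM in WT. Mitochondrial genes took 5.32% of its counts, against 1.99% to 3.01% in the other 5. The median of the 7 adipocyte genes was 4.89, and 0.18 without this library. Over all genes, 1818 had an unadjusted p under 0.05 without it.

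The HET effect at 8 weeks was set against that at 25 weeks in the same fit. No gene passed an adjusted p of 0.05 for the difference between the ages (0 of 18828, 0%) in edgeR, 765 had an unadjusted p under 0.05, and DESeq2 also called 0. At 25 weeks the medians were -0.07 for the interferon-induced genes and 0.08 for the immediate-early genes, against -3.21 and 1.70 at 8 weeks. The interferon-induced genes summed to 896 and 794 CPM in HET and 774, 866 and 806 CPM in WT at 25 weeks.

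**Figure D4:**
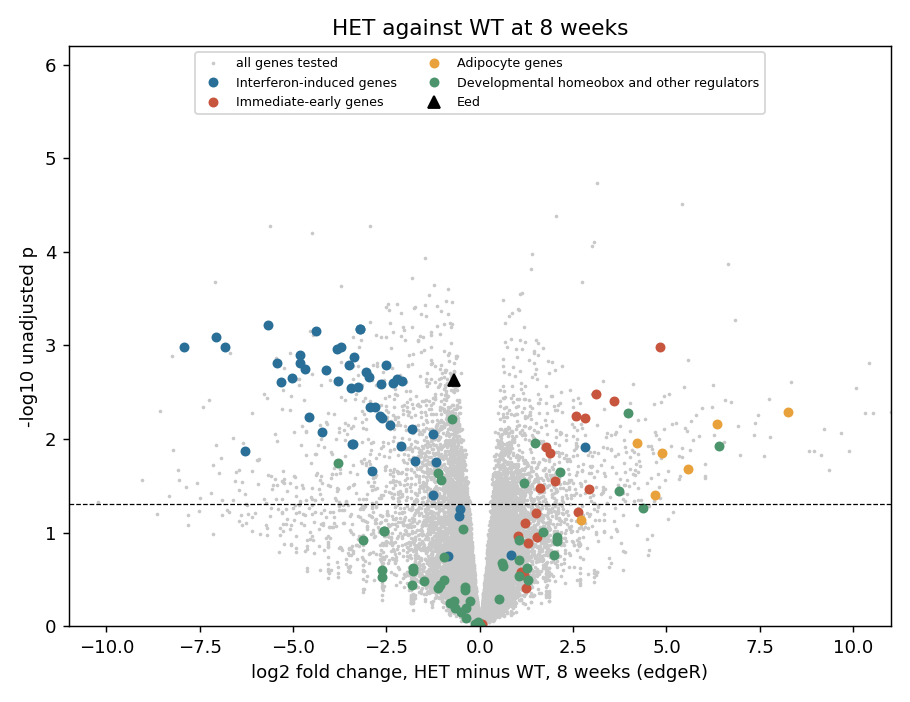
Log2 fold change of HET minus WT at 8 weeks against -log10 of the unadjusted p in edgeR for 18828 genes, with members of 4 lists and Eed coloured; the dashed line is an unadjusted p of 0.05. Interferon-induced genes lie to the left, immediate-early and adipocyte genes to the right, and no gene passed after adjustment.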

How the data were processed

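Single-cell and ChIP data were not analysed here. Bulk RNA-seq of whole islets was analysed. The deposited values are whole-number read counts for each gene, which the authors made with TopHat2 2.0.13 on GRCm38 and featureCounts of Subread 1.5.0-p1, with the strand setting not given in the sources used here. They also deposited a wild-type chromatin segmentation as state letters in bins of 200 bp. No count column was left unused (0).

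The tests were run with edgeR 4.0.16 under R 4.3.3 (quasi-likelihood test, TMM factors, filterByExpr by group) in 1 fit of all 16 libraries in 6 groups, with a common biological coefficient of variation of 0.424. Genes with a Benjamini-Hochberg adjusted p under 0.05 were called. CPM are scaled with TMM, each standard error was taken as the size of the log2 fold change over the root of its F statistic, and library means of lists use log2(CPM + 1). Fos, Ucp1 and Cdkn2a were chosen after their values were seen, as were 4 of the 40 lists. In all, 17 alternatives were run, 2 of them chosen after seeing the data: DESeq2 1.42.0, other scalings, filters and sets of libraries. Total counts were 14601864 to 22925359 in the 6 libraries compared, and the number of libraries limits the precision. The scripts were tested on simulated data.

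Of 47937 genes, 47224 were matched by identifier to names, positions and start sites of a later annotation of the same build. Promoters are from RefSeq, GRCm38.p6; 12938 tested genes matched by symbol. Named genes were taken from the 10 smallest p in each direction, at 1 CPM or more in a group, up to 4 with the smallest p of each list, and fixed names. The members and lists were chosen with earlier results of these data known.

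Replicate numbers are not said to mark pairs. Within groups, pairs of libraries differed with a chi-square of 49.2 to 351 for each degree of freedom, at genes holding at least 10 reads.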

Additional observations from a re-analysis of the deposited data

How the results depend on the processing

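No gene was called in the comparison of HET with WT, and this count was 0 with RLE scaling, library size alone, only the 6 libraries, without WT replicates 3 and 4, without each library other than WT replicate 1, and without HET replicate 2 and WT replicate 1 together. It was 5 with no filter on low counts (3 higher, 2 lower), 381 in DESeq2 (110 higher, 271 lower), 17 in the 9 libraries at 8 weeks (15 higher, 2 lower), 2 with the mean of the interferon-induced genes as a covariate (0 higher, 2 lower) and 1, lower, without HET replicate 2 and WT replicates 3 and 4 together. Over the fits that leave out 1 library it was 0 to 602, with 0 to 85 higher and 0 to 517 lower; the cause was not tested. The log2 fold change of Eed was called in DESeq2 at -0.71, and was -0.88 to -0.59 over the fits that leave out 1 library. The 2 fits that leave out HET replicate 2 together with WT libraries were chosen after seeing the data.

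With the replicate number as a block, 0 genes were called and 1450 had an unadjusted p under 0.05, against 2743 without it. Deviations from the group means correlated at 0.161 for HET and WT replicates 1 and 0.080 for replicates 3. For HET and WT replicates of unlike number they correlated at -0.228 to 0.121. These few values cannot decide whether the numbers mark pairs. The main fit had no block because the numbers are not said to mark pairs.

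Of the genes named, none of them called in edgeR over all 16 libraries after the filter on low counts, some had the opposite sign in another fit, with these log2 fold changes; the cause was not tested. With the interferon covariate, the value was 0.31 for Irgm1, 0.51 for Gbp6, 0.19 for Tap1, 0.033 for Psmb9, 0.51 for Dnajb9, 0.066 for Neurod1, -0.10 for Slc2a2, -0.068 for Ezh1, -0.19 for Nkx2-2, -0.27 for Isl1, -0.51 for Nkx6-1, -0.56 for Fos, -0.30 for Pdx1 and -0.10 for Ins1. Without HET replicate 2 and WT replicate 1 together, the value was -0.0015 for Cpt1b, -0.95 for Fabp4, -0.024 for Cidec, -2.54 for Dio2, -2.21 for Zic1, -1.96 for Cox7a1, -0.032 for Ndufv1, -0.078 for Uqcrc1, -4.28 for Ucp1 and -0.073 for Gata2. With the replicate number as a block, the value was -0.32 for Fabp4, -2.13 for Dio2, -2.17 for Zic1, -1.96 for Cox7a1, -0.033 for Ndufv1, -0.16 for Uqcrc1, -2.23 for Ucp1, -0.038 for Ins2 and -0.084 for Ins1. Without HET replicate 2 and WT replicates 3 and 4 together, the value was -0.80 for Dio2, -1.73 for Cox7a1, -0.30 for Uqcrc1, 0.61 for Dnajb9, 0.040 for Suz12, 0.17 for Neurod1, -0.070 for Ezh1, -0.22 for Isl1, -0.11 for Fos, -0.057 for Pdx1 and -0.11 for Ins1. Without WT replicates 3 and 4, the value was 0.60 for Dnajb9, 0.036 for Suz12, 0.091 for Neurod1, -0.048 for Mafa, -0.21 for Isl1, -0.064 for Nkx6-1, -0.26 for Fos, -0.15 for Pdx1 and -0.15 for Ins1. With RLE scaling, the value was -0.016 for Gata2. In DESeq2, the value was -0.028 for Gata2. Over the fits that leave out 1 library, values ranged from -0.029 to 0.57 for Cdkn2a, -1.85 to 4.75 for Cox7a1, -2.12 to 6.00 for Dio2, -0.50 to 5.66 for Fabp4, -0.27 to 0.25 for Gata2, -0.11 to 0.093 for Ins1, -0.074 to 0.23 for Ins2, -3.66 to 9.81 for Ucp1, -0.13 to 1.43 for Uqcrc1 and -1.79 to 6.08 for Zic1.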

Other observations

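Other gene groups at 8 weeks are given by the same counts, against 10.3% of all genes above WT in all libraries and 9.09% below. Of 18 imprinted genes, 2 lay above WT in all libraries and 5 below, with a median log2 fold change of -0.34, and 0.06 without WT replicates 3 and 4. Of 16 mesenchymal and collagen genes, 0 lay above WT in all libraries and 0 below, with a median log2 fold change of 0.64, and -0.10 without HET replicate 2. Of 12 endothelial genes, 2 lay above WT in all libraries and 0 below, with a median log2 fold change of 0.33. Of 13 genes disallowed in β cells, 0 lay above WT in all libraries and 0 below, with a median log2 fold change of 0.19, and -0.66 without HET replicate 2. Of 20 Wnt and BMP ligands and antagonists, 0 lay above WT in all libraries and 3 below, with a median log2 fold change of -0.16, and -0.63 without HET replicate 2. Of 10 Hedgehog pathway genes, 2 lay above WT in all libraries and 0 below, with a median log2 fold change of -0.10, and -0.23 without HET replicate 2. The mesenchymal and collagen genes summed to 160, 473 and 176 CPM in HET.

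The 7 Reg family genes, secreted lectins of exocrine tissue, summed to 5739, 1846 and 1740 CPM in HET and 13833, 1819 and 606 CPM in WT. HET replicate 1 and WT replicate 1, the libraries with the largest acinar shares, were the highest. The median log2 fold change was -0.77, and 1.95 without WT replicate 1; no member was called in either fit.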
